A study of Mus musculus with 10 samples.

Results

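TRBV31, also known as Vbeta14, is a variable gene of the mouse T cell receptor (TCR) beta chain. Its receptors were described in splenic regulatory T (Treg) cells from 10 libraries. In the 5 CNS4KO libraries the mice lacked the Foxp3 enhancer CNS4, and in the 5 CNS4Flox libraries they carried its floxed allele. Values of single libraries follow the replicate numbers, which were given here in sample order. No treatment was given, per the labels, and the mouse age, the cell number and the driver of any Cre recombinase are not given in the sources used here. RNA of both TCR chains was amplified and sequenced, and each deposited table lists clonotypes, the distinct receptor sequences of a library, with their counts. TRBV31 clonotypes were the entries named TRBV31 whose CDR3, the loop formed where the gene segments join, ends in the residues of a beta chain J gene. They were 21089 of 193012 beta chain (TRB) entries, or 10.9%, and held 33392 of 266347 TRB counts. The tables held 387286 entries in all. A clonotype is counted in each library that holds it.

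A beta chain gene is assembled in the thymus from a V, a D and a J segment by the RAG recombinase. Bases are trimmed from the opened ends, palindromic bases can be left where a hairpin is opened off centre, and the enzyme TdT inserts further bases. Most V genes lie upstream of the D and J segments and are joined by deleting the DNA between. TRBV31 lies downstream in the opposite orientation and is joined by inversion, which keeps the intervening DNA. Treg cells restrain immune responses under the transcription factor Foxp3, and the TCR takes part in their selection.

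In GRCm38 (mm10), RefSeq places TRBV31 on chromosome 6 from 41557693 to 41558371, as a V segment. It lies beyond TRBC2, the constant gene of the TRBJ2 cluster at 41546730 to 41548181. The other 21 V genes found here all lie upstream of TRBD1, which spans 41533201 to 41533212. TRBD2 spans 41542163 to 41542176. Between TRBV31 and the nearest end of TRBJ2-7 lie 13836 bases, and between TRBV31 and TRBJ1-1 lie 23781 bases.

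The sequences below show the V end that the junction measures rest on and the CDR3s found in most libraries. Each is the CDR3 coding sequence read 5′ to 3′ from the conserved cysteine codon, with the bases assigned to TRBV31 in capitals and those assigned to D, J or neither in lower case. For each of the 5 amino acid clonotypes, 1 nucleotide sequence is given, the one found in more libraries than its others or tied for that. In the order shown, these nucleotide sequences were found in 6, 3, 4, 4 and 7 libraries.
Untrimmed TRBV31 end: TGTGCCTGGAGTCT
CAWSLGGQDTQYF: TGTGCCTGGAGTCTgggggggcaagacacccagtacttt
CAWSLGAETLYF: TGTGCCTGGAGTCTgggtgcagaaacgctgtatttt
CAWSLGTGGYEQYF: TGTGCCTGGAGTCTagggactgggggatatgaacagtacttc
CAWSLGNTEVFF: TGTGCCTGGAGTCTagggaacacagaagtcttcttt
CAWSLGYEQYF: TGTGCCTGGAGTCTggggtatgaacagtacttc
All 5 keep the whole 14 bases of the TRBV31 end.

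The libraries held 61793 to 95853 counts each, of which 19199 to 34833 were TRB counts. TRBV31 had 3063 to 4222 counts in CNS4KO libraries and 2467 to 3954 in CNS4Flox libraries. One pair of libraries, CNS4KO replicate 5 and CNS4Flox replicate 3, shared 129 TRBV31 nucleotide clonotypes, whereas the other 44 pairs shared 15 to 54. That pair also shared 299 TRBV31 amino acid clonotypes, against 100 to 201 in the other pairs. Whether cells, material or sequences passed between them was not tested, and results that change without both libraries are named. Nothing in the labels ties replicates to separate mice, so p-values measure only the spread between these samples. Only TCR transcripts were sequenced, so neither the Treg label nor the CNS4 deletion was checked by markers. Counts may be reads or molecules, and intervals cover counting error only.

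TRBV31 was the most used V gene in all 10 libraries. It made up 14.3%, 16.5%, 12.2%, 9.63% and 13.1% of TRB counts in the CNS4KO libraries, against 13.8%, 11.4%, 11.99%, 11.8% and 12.9% in the CNS4Flox libraries. The 95% Wilson interval was 9.33% to 9.95% in the lowest library, CNS4KO replicate 4, and 16.02% to 17.1% in the highest, CNS4KO replicate 2. The CNS4KO libraries thus hold both extremes, and the groups overlap. Of distinct TRB clonotypes, the TRBV31 share was 10.8% ± 1.86 for CNS4KO and 11.3% ± 1.22 for CNS4Flox (SD, n = 5 each). The next gene, TRBV19, averaged 7.23% ± 0.880 of clonotypes (SD, n = 10) and lay below TRBV31 in all 10 libraries.

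**Figure D1:**
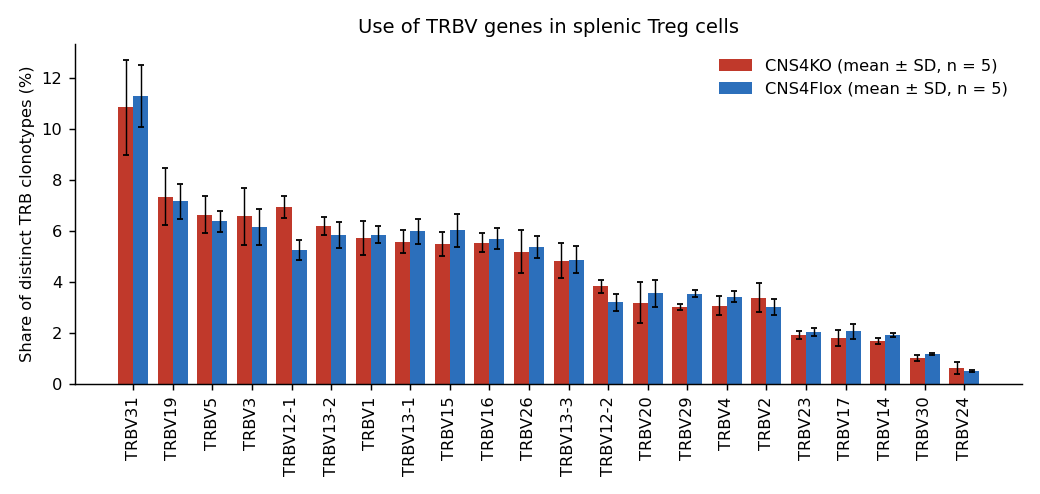
Share of distinct TRB clonotypes, in percent, for each of 22 TRBV genes in CNS4KO (red) and CNS4Flox (blue) libraries, as bars of the mean with the SD over 5 libraries. TRBV31 has the highest bar in each group, at 10.8% in CNS4KO and 11.3% in CNS4Flox.

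TRBV31 use did not pass the test between the groups. On counts, the CNS4KO to CNS4Flox log2 ratio was 0.08 with a standard error of 0.13 and an adjusted p of 0.791 by edgeR's quasi-likelihood test. On distinct clonotypes it was -0.06 with a standard error of 0.13 and an adjusted p of 0.757 by edgeR. None of the 22 V genes, 0%, was called on counts by edgeR, 1 had an unadjusted p under 0.05, and DESeq2 called 1. On clonotypes edgeR called 3 of 22, or 13.6%, none of them TRBV31. With TMM normalisation edgeR called 2. It called 1 without CNS4KO replicate 4, without CNS4KO replicate 5, or without the pair of libraries that share most.

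TRBV31 joined the J genes in other proportions than the other TRBV genes did when these were pooled. The table names no TRBJ1-6, so entries ending in its residues, PLYF, were assigned to it, 763 of them with TRBV31. Shares of distinct clonotypes were compared within each library by an exact sign-flip permutation test over the 10 libraries, two-sided, with Benjamini-Hochberg adjustment over 12 genes. Of the 12 genes, 10 were called, or 83.3%, of which 5 were higher and 5 lower with TRBV31.

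The J genes used more with TRBV31 were spread over both clusters. TRBJ2-5 made up 14.8% ± 0.857 of TRBV31 clonotypes and 12.5% ± 0.231 of the other clonotypes (SD, n = 10). TRBJ2-1 made up 12.3% ± 0.612 with TRBV31 and 10.2% ± 0.308 with the others. TRBJ2-3 made up 9.45% ± 0.664 with TRBV31 and 7.93% ± 0.537 with the others. TRBJ1-2 made up 5.27% ± 0.362 with TRBV31 and 4.37% ± 0.213 with the others. Each of these 4 was higher with TRBV31 in all 10 libraries, with an adjusted exact p of 0.00335. TRBJ1-5 was higher in 9 of 10 libraries, at 3.13% with TRBV31 and 2.77% with the others, with an adjusted exact p of 0.00879. Among clonotypes of 2 or more counts, TRBJ1-2 and TRBJ1-5 were no longer called, with adjusted exact p of 0.377 and 0.666. TRBJ1-5 was also not called when weighted by count, with an adjusted exact p of 0.134.

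The largest deficit was at TRBJ2-4, which made up 9.36% ± 0.832 of TRBV31 clonotypes and 12.1% ± 0.424 of the others (SD, n = 10). TRBJ1-3 followed, at 4.17% ± 0.584 with TRBV31 and 5.70% ± 0.278 with the others, a ratio of 0.731. TRBJ1-1 made up 8.13% ± 0.808 with TRBV31 and 9.44% ± 0.509 with the others. These 3 were lower with TRBV31 in all 10 libraries, each with an adjusted exact p of 0.00335, but TRBJ1-1 was not called among clonotypes of 2 or more counts, with an adjusted exact p of 0.0996. TRBJ2-7, the J gene used most, was lower in 8 of 10 libraries, at 18.7% with TRBV31 and 19.7% with the others, with an adjusted exact p of 0.0182, and was not called when weighted by count, with an adjusted exact p of 0.164. TRBJ2-2 was lower in 7 of 10, at 5.28% with TRBV31 and 5.71% with the others, with an adjusted exact p of 0.0422. It lost this call on leaving out any of 7 libraries: each of the 5 CNS4KO libraries, CNS4Flox replicate 4 or CNS4Flox replicate 5, with adjusted exact p of 0.0563 to 0.0844. Without the pair of libraries that share most, TRBJ2-7 and TRBJ2-2 were no longer called, with adjusted exact p of 0.0729 and 0.0844, and 8 of the 12 were called. TRBJ1-4 (5.89% with TRBV31 and 5.98% with the others) and TRBJ1-6 (3.62% and 3.55%) did not pass the test.

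**Figure D2:**
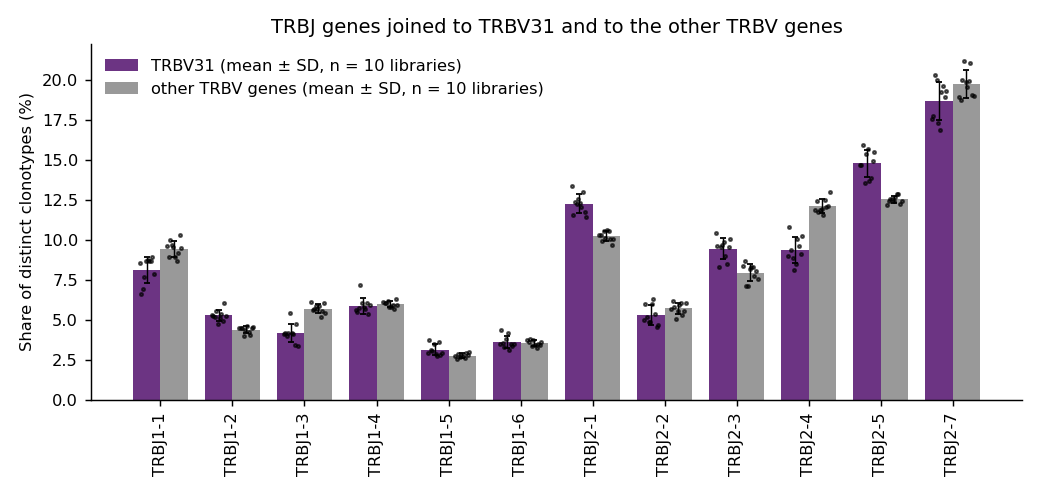
Share of distinct clonotypes, in percent, by J gene for TRBV31 (purple) and the other TRBV genes (grey), as bars of the mean over 10 libraries with the SD and a point for each library. TRBJ2-1, TRBJ2-3 and TRBJ2-5 stand higher with TRBV31, and TRBJ2-4 and TRBJ1-3 lower.

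Summed over the cluster, TRBJ2 genes made up 69.8% ± 1.10 of TRBV31 clonotypes and 68.2% ± 1.04 of the others (SD, n = 10), higher with TRBV31 in 9 of 10 libraries. The adjusted exact p was 0.00586 over 10 junction and size measures, the family used for the measures that follow. With clonotypes of 2 or more counts the excess was 0.807 points and was no longer called, with an adjusted exact p of 0.295. TRBV31 ranked 10 of 22 genes on this share. With all clonotypes the cluster total differed by 1.60 percentage points, less than TRBJ2-4 alone did. The V genes with the J usage nearest to TRBV31 were TRBV13-2 and TRBV13-1. The share of clonotypes that would have to change J gene to match TRBV31 averaged 6.86% and 7.16% over 10 libraries. TRBV12-1, at 16.7%, and TRBV15, at 16.5%, were farthest. These distances are descriptions, and genes with fewer clonotypes have larger sampling error. Several leanings of TRBV31 against the pooled genes were also seen in TRBV13-2. It held TRBJ2-5 at 14.1%, TRBJ2-1 at 11.3%, TRBJ1-2 at 5.14% and TRBJ1-1 at 7.49%. At TRBJ1-3, TRBJ2-3 and TRBJ2-7, with 5.92%, 7.24% and 20.4%, TRBV13-2 leaned the other way.

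TRBD2 was used more with TRBV31. Among TRBJ2 joins with a named D, TRBD2 held 56.2%, 53.7%, 56.8%, 56.6% and 56.4% in the CNS4KO libraries and 56.4%, 55.1%, 54.2%, 56.2% and 56.2% in the CNS4Flox libraries. The other TRBV genes held 45.7% to 48.1%, so TRBV31 lay above them in every library. The mean was 55.8% ± 1.07 with TRBV31 and 46.7% ± 0.764 with the others (SD, n = 10), with an adjusted exact p of 0.00217. TRBV31 ranked 2 of 22, below TRBV4 at 58.2% ± 2.54 and above TRBV13-2 at 54.0% ± 2.63, and each of these differences is smaller than that neighbour's SD.

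In TRBJ1 joins, TRBD1 was named in 87.8% ± 1.04 of TRBV31 clonotypes and TRBD2 in 8.64% ± 1.30 (SD, n = 10). The other TRBV genes had TRBD2 in 8.65% ± 0.449 of such joins. TRBD2 lies 3′ of the TRBJ1 genes, and D segments are short and alike, so D names carry an error. The TRBD2 share of TRBJ1 joins, close with TRBV31 and with the others, can reflect such misnaming. The error of D names in TRBJ2 joins was not measured. Joins with no D named made up 2.58% ± 0.350 of TRBV31 clonotypes and 3.78% ± 0.151 of the others, lower with TRBV31 in all 10 libraries, with an adjusted exact p of 0.00217. TRBV31 ranked 21 of 22 on that share, beside TRBV5 at 2.56%.

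Measured from inferred germline ends, TRBV31 had the lowest mean trimming of the 22 V genes. On average 1.44 ± 0.0474 bases were removed from TRBV31, against 2.69 ± 0.0307 from the other genes (SD, n = 10), with an adjusted exact p of 0.00217. The germline end of a gene was taken as the longest kept length reached by at least 1% of its clonotypes, 14 bases for TRBV31, since no germline V sequence was used. Only 5 TRBV31 entries went past it. The 1% limit was not varied, and an end inferred too long would raise the trimming of that gene. The inferred end of TRBV4 was kept whole by 75 of its 6280 clonotypes. The bases removed ranged from 1.37 to 1.49 in the 10 libraries with TRBV31 and from 2.65 to 2.74 with the others, so the values do not overlap. TRBV2 came next, at 1.74 ± 0.0910 bases.

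The end was whole in 43.1% of TRBV31 clonotypes. This was the highest share of 22 genes, with TRBV5 next at 40.4% ± 1.02 against 43.1% ± 1.11 for TRBV31 (SD, n = 10). One base was missing in 20.8%, 2 in 8.17%, 3 in 15.7%, 4 in 5.51% and 5 in 4.87% of TRBV31 clonotypes. The loss of 3 bases was thus more frequent than the loss of 2. Trimming went with CDR3 length, which averaged 13.83 residues for whole ends, 13.64 for ends lacking 1 base and 13.23 for ends lacking 2 or more.

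**Figure D3:**
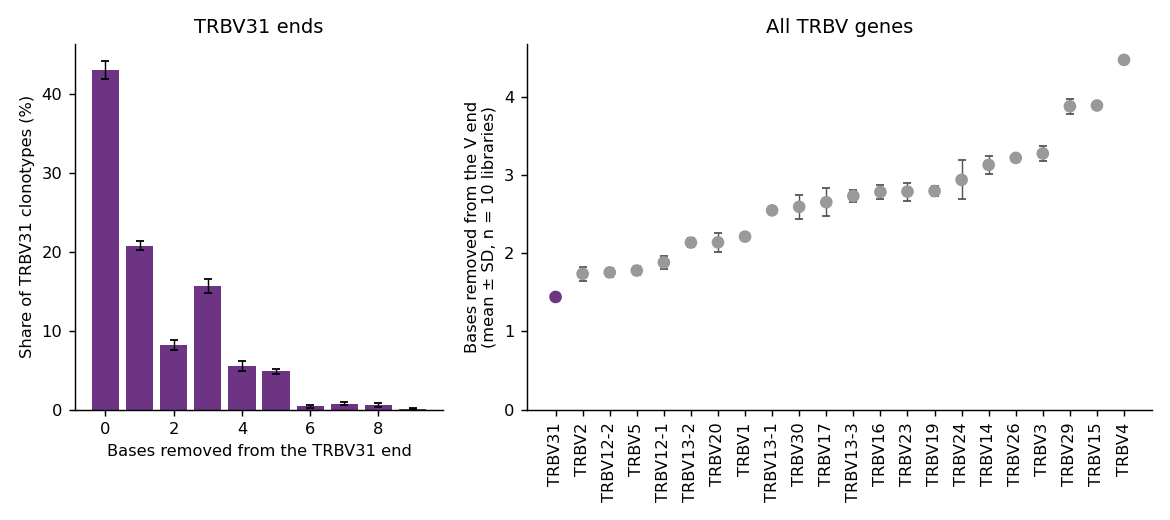
Left, the share of TRBV31 clonotypes, in percent, by the number of bases removed from the V end (mean and SD over 10 libraries). Right, the mean number of bases removed from the inferred end of each of 22 V genes, with the SD. TRBV31 (purple) is lowest at 1.44 and TRBV4 highest.

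The first palindromic base followed the whole TRBV31 end in most clonotypes. An off-centre hairpin opening would leave adenine and then guanine after this end. Adenine was the next base of the CDR3 in 57.4% of 9079 whole-end clonotypes. Among 10669 ends trimmed by 1 to 6 bases, at positions where the germline base is not adenine, it came next in 21.8%. Both palindromic bases followed 34.4% of whole ends. The share with adenine lay between 55.5% and 59.4% in the 10 libraries and ranked 4 of 22 genes. The clonotypes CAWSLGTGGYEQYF and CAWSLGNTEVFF, printed above, carry both directly after the V bases. A random insertion or a D base could also give these bases, and the shares were not tested.

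TRBV31 joins carried slightly more inserted bases. The bases between V and D and between D and J summed to 3.60 ± 0.0552 with TRBV31 and 3.44 ± 0.0323 with the others (SD, n = 10), higher with TRBV31 in all 10 libraries, with an adjusted exact p of 0.00217. Joins without inserted bases made up 15.6% ± 0.991 of TRBV31 clonotypes and 17.8% ± 0.495 of the others, lower in all 10 libraries, with the same adjusted exact p of 0.00217. Weighted by count, that difference was -1.64 percentage points and was no longer called, with an adjusted exact p of 0.0625. The deposited positions never leave fewer than 1 base between D and J, so a gap of 1 there and of 0 between V and D was counted as no insertion, and the inserted sum holds that base. TRBJ1-6 entries were left out of both measures. Palindromic bases fall in the same gaps and were counted as inserted, so the sum is not a measure of TdT addition alone. TRBV31 ranked 5 of 22 on inserted bases, with TRBV14 at 3.61 and TRBV4 at 3.58 beside it.

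TRBV31 CDR3s were shorter by a small margin. Their length averaged 13.57 ± 0.0349 residues, against 13.74 ± 0.0215 for the others (SD, n = 10), shorter in all 10 libraries, with an adjusted exact p of 0.00217. TRBV31 ranked 17 of 22. Although less was trimmed, TRBV31 kept fewer V bases, 12.56 ± 0.0473 against 13.66 ± 0.0168 for the others, lower in all 10 libraries. Its inferred germline end is 14 bases, and those of the other genes are 14 to 17. TRBV20 and TRBV30, also at 14 bases, ranked 21 and 22 on length. The part of the V end in the length difference was not tested. Lengths of 13 and 14 residues held 25.7% and 30.0% of its clonotypes. CDR3s of 12 or fewer residues made up 20.2%, and those of 17 or more 1.28%.

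The first residues of the TRBV31 CDR3 varied little. The residues CAW opened 97.6% of clonotypes, CAWS 80.3% and CAWSL 42.7%. CAWR opened 7.27%. At residue 5, leucine was found in 44.4%, proline in 14.2% and arginine in 13.7%. The leucine codon begins with the last bases of the whole V end.

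TRBV31 clonotypes were larger than others in the same library. After each library was drawn down to 19199 TRB counts, a TRBV31 clonotype held 1.84, 1.74, 1.76, 1.61 and 1.42 counts on average in the CNS4KO libraries, against 1.21, 1.32, 1.36, 1.26 and 1.29 in the CNS4Flox libraries. The lowest CNS4KO library lay above the highest CNS4Flox library. This also held for the other TRBV genes, at 1.24 to 1.49 counts in CNS4KO and 1.13 to 1.21 in CNS4Flox. Over all 10 libraries the mean was 1.48 ± 0.234 counts for TRBV31 and 1.28 ± 0.126 for the others, higher with TRBV31 in 10 of 10, with an adjusted exact p of 0.00217. TRBV31 ranked 3 of 22, below TRBV23 at 1.64 and above TRBV26 at 1.47, and these differences are within the SDs over libraries.

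Clonotypes of 5 or more counts held 25.5%, 25.8%, 27.2%, 22.7% and 11.5% of TRBV31 counts in the CNS4KO libraries. They held 2.40%, 10.5%, 12.4%, 5.52% and 6.82% in the CNS4Flox libraries. Only CNS4KO replicate 5 overlapped the CNS4Flox libraries. For the other TRBV genes no library overlapped, at 4.77% to 14.4% in CNS4KO and 1.32% to 4.67% in CNS4Flox. In the other TRBV genes the same share was 10.9% ± 3.87 for CNS4KO and 2.67% ± 1.22 for CNS4Flox (SD, n = 5 each). Within libraries TRBV31 exceeded the others by 8.27 percentage points on average, in 10 of 10, with an adjusted exact p of 0.00217. TRBV31 ranked 4 of 22 on this share, at 15.04% ± 9.38, below TRBV26 at 16.4% ± 10.7 and above TRBV29 at 13.1% ± 9.16 (SD, n = 10).

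The group differences in TRBV31 clonotype size did not pass adjustment. Counts per clonotype were higher in CNS4KO by 0.385, with an exact permutation p of 0.00794 (adjusted p 0.0794). No assignment of 5 against 5 libraries gives a smaller p, and adjustment was over 10 measures. Counts in clonotypes of 5 or more were higher by 15.03 percentage points, with an exact p of 0.0159 (adjusted p 0.0794). Whether TRBV31 differed between groups by more than the other genes was tested on the difference within each library. That excess was larger in CNS4KO by 0.180 counts per clonotype, with an exact p of 0.00794 (adjusted p 0.0794). For clonotypes of 5 or more counts it was larger by 6.83 percentage points, with an exact p of 0.0317 (adjusted p 0.159). Without CNS4KO replicate 5, all 4 of these differences passed, with an adjusted exact p of 0.0397 each. The comparison with the other genes is in counts and percentage points, and ratios between the groups were not tested. In clonotypes of 5 or more counts, TRBV31 averaged 22.6% in CNS4KO and 7.53% in CNS4Flox. The other genes averaged 10.9% and 2.67%, so the larger difference of TRBV31 in this share holds for points, not for ratios.

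**Figure D4:**
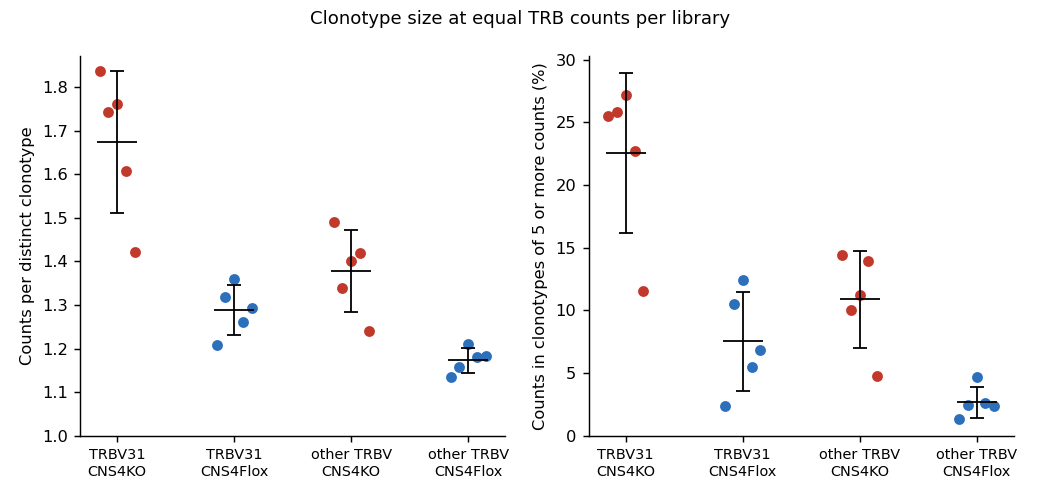
Counts per distinct clonotype (left, axis starting at 1) and the percent of counts in clonotypes of 5 or more counts (right), for TRBV31 and the other TRBV genes in CNS4KO (red) and CNS4Flox (blue) libraries at 19199 TRB counts each. Points are libraries, and lines are the mean and SD of 5. TRBV31 stands at 1.42 to 1.84 counts per clonotype in CNS4KO and 1.21 to 1.36 in CNS4Flox.

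No junction measure of TRBV31 passed the test between CNS4KO and CNS4Flox when each clonotype was counted once. The TRBJ2 share was 69.7% ± 1.34 for CNS4KO and 69.9% ± 0.950 for CNS4Flox (SD, n = 5 each). Inserted bases were 3.58 ± 0.0748 for CNS4KO and 3.62 ± 0.0234 for CNS4Flox. TRBV31 kept 12.6 ± 0.0492 of its V bases in CNS4KO and 12.5 ± 0.0340 in CNS4Flox. The adjusted exact p of these junction measures lay between 0.298 and 0.889.

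Weighting by count changed this for D use. Weighted so, TRBD2 held 52.5%, 47.7%, 51.4%, 53.3% and 53.4% of the TRBV31 counts in TRBJ2 joins of the CNS4KO libraries. It held 55.9%, 54.7%, 55.5%, 54.9% and 55.8% in the CNS4Flox libraries. All 5 CNS4KO libraries lay below all 5 CNS4Flox libraries, a difference of -3.69 percentage points with an adjusted exact p of 0.0397. Counted once per clonotype, the shares were 55.9% ± 1.27 for CNS4KO and 55.6% ± 0.946 for CNS4Flox (SD, n = 5 each), with an adjusted exact p of 0.750. In the other TRBV genes the weighted share was 46.9% ± 1.04 in CNS4KO and 45.8% ± 0.504 in CNS4Flox. The difference of TRBV31 from the others was lower in CNS4KO by this weighting, at -4.71 percentage points with an adjusted exact p of 0.0397. Large clonotypes carry more weight in this measure. TRBV31 clonotypes averaged 1.67 ± 0.163 counts in CNS4KO and 1.29 ± 0.0570 in CNS4Flox at equal TRB counts, and the part of clonotype size in the D difference was not tested.

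The largest TRBV31 clonotype differed in every library. It held 125, 72, 69, 69 and 42 counts in the CNS4KO libraries, against 10, 72, 60, 17 and 15 counts in the CNS4Flox libraries. The sequences of 3 are given, with TRBV31 bases in capitals, because they hold the highest count or were the largest of all TRB clonotypes in their library.
Largest in CNS4KO replicate 1: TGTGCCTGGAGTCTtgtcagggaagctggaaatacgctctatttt
Largest in CNS4KO replicate 2: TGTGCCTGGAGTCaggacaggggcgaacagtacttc
Largest in CNS4Flox replicate 2: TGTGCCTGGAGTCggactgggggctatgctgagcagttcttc
The largest of CNS4KO replicate 1, joined to TRBJ1-3, held 125 counts, or 3.24% of the TRBV31 counts there. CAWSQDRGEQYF, joined to TRBJ2-7, was the largest of all TRB clonotypes in CNS4KO replicate 2, with 72 counts. The TRBV31 clonotype of CNS4Flox replicate 2, joined to TRBJ2-1, was also the largest of all TRB clonotypes there, with 72 counts. Its amino acid sequence was found in 5 other libraries.

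The other libraries had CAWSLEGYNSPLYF, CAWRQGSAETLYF and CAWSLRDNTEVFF as their largest in CNS4KO replicates 3 to 5. CNS4Flox replicates 1, 4 and 5 had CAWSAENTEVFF, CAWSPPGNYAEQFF and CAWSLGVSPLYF, and CNS4Flox replicate 3 had a longer CDR3 joined to TRBJ2-7. Among the 100 largest TRB clonotypes of a library, 29, 37, 27, 18 and 24 were TRBV31 in the CNS4KO libraries, against 13, 25, 26, 19 and 29 in the CNS4Flox libraries. TRBV31 made up 8.38% to 13.2% of all TRB clonotypes in the CNS4KO libraries and 9.90% to 13.04% in the CNS4Flox libraries. In CNS4Flox replicate 1 the 13 of 100 was no more than its 13.04% of all clonotypes. Clonotypes tied in count at the cut of 100 were taken in order of gene name, most other V genes before TRBV31. The TRBV31 numbers can thus be too low where ties fall at the cut, and the groups were not tested on them.

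TRBV31 clonotypes recurred between libraries. At equal TRB counts, 28.3% ± 2.16 of TRBV31 amino acid clonotypes were found in another library, against 18.7% ± 1.01 of the others (SD, n = 10), higher in all 10 libraries, with an adjusted exact p of 0.00217. TRBV31 ranked highest of 22, with TRBV26 at 25.9% ± 1.74 next. TRBV31 also had the most clonotypes of the 22 genes. With each gene drawn to 500 counts, an alternative chosen after the data were seen, TRBV31 ranked 7 of 15 genes, at 14.1% ± 1.22. Its difference from the other 14 genes was then 0.480 percentage points, higher in 7 of 10 libraries, with an exact p of 0.0977, so the call did not hold.

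**Figure D5:**
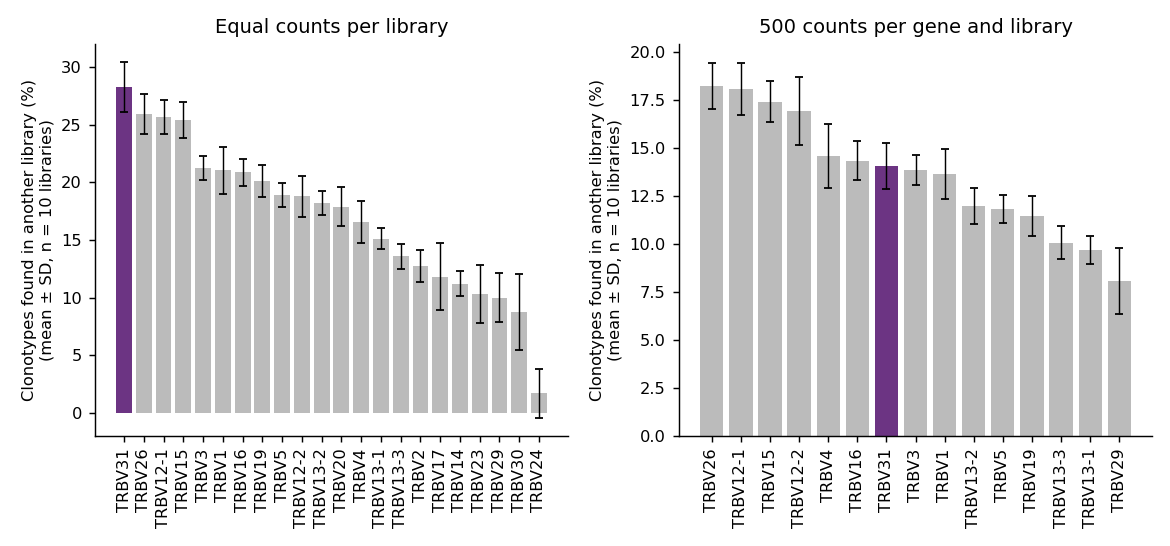
Share of amino acid clonotypes, in percent, that were found in another library, by V gene, as the mean and SD over 10 libraries, at equal TRB counts per library (left, 22 genes) and at 500 counts per gene (right, 15 genes). TRBV31 (purple) is the highest bar on the left, at 28.3%, and the seventh from the left on the right, at 14.1%.

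In all libraries as deposited, 2374 TRBV31 amino acid clonotypes occurred in 2 or more libraries, 186 in 5 or more and 20 in 8 or more. They were 13.6% of 17424, 27.2% of 684 and 54.1% of 37 TRB clonotypes of that kind, whereas TRBV31 made up 9.97% of all 163819 distinct amino acid clonotypes. These shares come from unequal counts per gene, and at 500 counts per gene the sharing of TRBV31 was not called above that of the other genes. TRBV31 clonotypes found in more libraries had more whole V ends and fewer inserted bases. Entries found in 1 library, 2 to 4 libraries and 5 or more libraries had whole V ends in 35.9%, 53.2% and 74.4%. They had 4.14, 2.63 and 1.99 inserted bases on average and lengths of 13.72, 13.35 and 12.99 residues. In every library the inserted bases fell in that order. Each amino acid clonotype of these classes was encoded by 1.01, 2.19 and 5.54 nucleotide clonotypes on average. These were pooled over all libraries that hold the amino acid clonotype, so the number can rise with the number of libraries alone. These classes were formed from the same entries, so the values are descriptions.

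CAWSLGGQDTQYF was the only TRBV31 clonotype in all 10 libraries. It had 8, 1, 2, 8 and 4 counts in the CNS4KO libraries and 3, 2, 3, 4 and 1 in the CNS4Flox libraries, from 12 nucleotide sequences. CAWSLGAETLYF, in 9 libraries, had 2, 1, 0, 16 and 7 counts in CNS4KO and 3, 2, 7, 2 and 1 in CNS4Flox. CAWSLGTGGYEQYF had 2, 3, 5, 6 and 1 counts in CNS4KO and 0, 5, 6, 2 and 5 in CNS4Flox. The groups overlap for all 3. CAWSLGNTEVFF and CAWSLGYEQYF, each also in 9 libraries, had 22 and 23 counts in all.

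No TRBV31 join or clonotype was called between the groups. Among 249 V and J pairs tested on distinct clonotypes, edgeR called 3, or 1.2%, and DESeq2 called 5. Neither called any of the 12 TRBV31 pairs. By edgeR none of these 12 had an unadjusted p under 0.05, against 24 of all 249. The smallest adjusted p of a TRBV31 pair was 0.676 by edgeR, for TRBJ1-1. Among 684 amino acid clonotypes found in at least 5 libraries, edgeR and DESeq2 called 0, or 0%, with 39 and 30 at an unadjusted p under 0.05. Of the 186 that used TRBV31, 12 had an unadjusted p under 0.05 by edgeR, 85 were higher in CNS4KO, and the smallest adjusted p was 0.285. The median log2 ratio by edgeR was -0.14 for these 186 and -0.002 for all 684.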

How the data were processed

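TCR libraries of 10 Treg samples were analysed. Each deposited table gives a whole-number count per clonotype, and the deposited fraction is that count over the library total, per the file headers. Positions of the matched V, D and J parts come from the same tables. The submitters' processing notes name mm10; the aligner and clonotype caller are not given in the sources used here. The chain was assigned from the CDR3 end, and entries without a TRB end were left out.

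Junction measures counted each distinct clonotype once. Size and sharing measures used the mean of 20 random draws of 19199 TRB counts. TRBV31 was compared with the other genes within libraries by exact sign-flip permutation (1024 flips, smallest p 0.00195), and CNS4KO with CNS4Flox by exact permutation, all two-sided, with Benjamini-Hochberg adjustment over 10 measures per family. edgeR's quasi-likelihood test, without TMM, used genes with at least 10 counts in 5 libraries and clonotypes found in 5 libraries; DESeq2 was an alternative. The scripts were tested on simulated data. The members, lists and named items were chosen with earlier results of these data known. Named clonotypes were the 5 in most libraries, the largest of each library and any past the edgeR test. Named V genes were the 2 nearest and 2 farthest in J use and the neighbours of TRBV31 in rank. The tests across genes ran in edgeR 4.0.16 and DESeq2 1.42.0 under R 4.3.3. All else ran in Python 3.11.15 with scipy 1.17.1, pandas 2.3.3 and numpy 2.4.6; plots were drawn by matplotlib 3.10.9. RefSeq positions matched 22 of 22 V and 12 of 12 J genes.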

Additional observations from a re-analysis of the deposited data

Results flagged for a closer look

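Among 50 groups of 5 TRBV31 values, 6 held a library far from the other 4, where chance gives about 1 in 20. The TRBD2 share of TRBJ2 joins was 53.7% in CNS4KO replicate 2, against 56.2% in the nearest CNS4KO library. Counts in clonotypes of 5 or more were 11.5% in CNS4KO replicate 5, against 22.7% in the nearest. TRBJ1-3 held 5.41% in CNS4KO replicate 5, against 4.17%. TRBJ1-1 held 7.85% in CNS4Flox replicate 5, against 8.66%. TRBJ1-5 held 3.61% in CNS4Flox replicate 3, against 2.95%. TRBJ2-7 held 16.9% in CNS4Flox replicate 1, against 18.9%.

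Entries named TRBV31 without a beta chain end, which the comparisons leave out, held more counts in 2 CNS4KO libraries than in any CNS4Flox library. They held 2051 counts in CNS4KO replicate 1, of which 1318 were in a single entry, and 1072 counts in CNS4KO replicate 5. The highest CNS4Flox library held 864. All entries carry TRBV names although both chains were amplified, and 49.8% of all entries have a beta chain end. The name TRBV31 therefore does not settle which chain the left-out entries belong to.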

How the results depend on the processing

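No paired analysis was possible because replicate numbers follow sample order and pair no samples. Matching V ends to a germline reference was not run, since no such sequence was given; a match to each gene's common start, chosen after the data were seen, replaced it. Of TRBV31 against the other genes, the TRBJ2 excess with clonotypes of 2 or more counts was 0.807 (adjusted exact p 0.295), joins without inserted bases weighted by count -1.64 (0.0625), and sharing at 500 counts per gene 0.480 (0.0977). Between CNS4KO and CNS4Flox in TRBV31, TRBD2 use weighted by count reversed to -3.69, against 0.301 unweighted, and relative to the other genes was -4.71, against -0.747 (adjusted exact p 0.0397 for both weighted values). Counts per clonotype without thinning differed by 0.490, counts in clonotypes of 5 or more without thinning by 18.0, and those of 10 or more by 9.89 (0.0397 each). Leaving out each library gave 0.345 to 0.448 counts per clonotype and 13.7 to 17.8 points in clonotypes of 5 or more (relative to the other genes, 0.153 to 0.209 and 5.75 to 8.06), with the highest of each without CNS4KO replicate 5. V genes called on counts were 0 to 2 without each library and 1 by DESeq2. V genes called on clonotypes were 1 to 3, and V and J pairs 1 to 3, with 1 of each without the pair that shares most and 5 pairs by DESeq2. Among J genes, TRBJ2-2 lost its call without any of 7 libraries, TRBJ1-5 and TRBJ2-7 when weighted by count, and TRBJ1-1, TRBJ1-2 and TRBJ1-5 with counts of 2 or more. The causes were not tested.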
